A study of Homo sapiens with 11 samples.

Results

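The genes described here are 10 haematopoietic progenitor transcription factors and their adaptors: LYL1, TAL1, TCF3, LMO2, LDB1, GATA2, MYB, HHEX, GFI1 and GFI1B. They were chosen by name, by matching their symbols to the Ensembl identifiers of the deposited table. No measured value entered that rule, but the choice was made with earlier results of these data known. All 10 were found among 58037 identifiers. Of these, 9 passed the filter on low counts that left 18908 genes for testing, and GFI1B did not.

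RNA was sequenced as paired ends in 11 libraries of human acute myeloid leukaemia (AML) cells. OCI-AML3 is an established AML line that carries mutated NPM1 and DNMT3A, and OCI-AML3-FLT3-ITD is named for an internal tandem duplication in the receptor tyrosine kinase FLT3. How the duplication was introduced, and whether the line is a single clone, was not given in the sources used here. Each line was sampled as a control (3 libraries of OCI-AML3 and 3 of OCI-AML3-FLT3-ITD) and after 16 h in 100 nM FHD-286 (3 and 2 libraries). FHD-286 is a small molecule that blocks BRG1 and BRM, the motor subunits of SWI/SNF chromatin remodellers. Whether controls received a vehicle was not stated, and nothing in the labels says that replicates were separate cultures, so p-values measure a spread that may be technical.

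These factors act together in blood stem and progenitor cells. LYL1 and TAL1 are basic helix-loop-helix proteins that bind E-box sequences as dimers with E proteins such as the products of TCF3. The LIM-only adaptor LMO2 and the scaffold LDB1 join such dimers to one another and to GATA2, so that distant enhancers and promoters are bridged. MYB is a transcriptional activator that keeps progenitors immature and dividing, HHEX is a homeobox repressor required in leukaemic stem cells, and GFI1 and GFI1B are zinc finger repressors that recruit the histone demethylase KDM1A and steer granulocyte and erythroid fates.

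LYL1, TAL1, MYB and HHEX fell with FHD-286 in both lines, and GFI1 rose in one line and fell in the other. Calls of TAL1, MYB and GFI1 were lost under some alternatives, as given below. Promoter windows of 3 of these members, TAL1, MYB and GFI1, are shown. Each is the 250 bases before the RefSeq start nearest the GENCODE gene start on GRCh38.p14, printed 5′ to 3′ on the gene's own strand. Capitals mark matches on either strand to the E-box, spelled CANNTG. They also mark the GATA motif, here AGATAA, and the ETS motif, here CCGGAA. The PU.1-type motif was searched as GAGGAA. The MYB motif was searched as AACGG. The TAL1 window is chr1:47232336-47232585 on the minus strand, the GFI1 window is chr1:92486926-92487175 on the minus strand, and the MYB window is chr6:135181058-135181307 on the plus strand.
TAL1: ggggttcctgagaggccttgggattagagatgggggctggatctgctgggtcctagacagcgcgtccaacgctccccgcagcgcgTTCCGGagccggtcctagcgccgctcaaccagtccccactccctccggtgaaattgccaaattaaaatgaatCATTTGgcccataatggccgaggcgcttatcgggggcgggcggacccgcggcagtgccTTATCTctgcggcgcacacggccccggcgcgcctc
GFI1: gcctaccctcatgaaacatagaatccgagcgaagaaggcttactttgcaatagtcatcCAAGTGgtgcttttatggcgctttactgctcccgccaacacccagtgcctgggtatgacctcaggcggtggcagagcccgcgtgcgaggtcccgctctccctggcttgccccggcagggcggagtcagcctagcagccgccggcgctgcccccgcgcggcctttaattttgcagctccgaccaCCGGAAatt
MYB: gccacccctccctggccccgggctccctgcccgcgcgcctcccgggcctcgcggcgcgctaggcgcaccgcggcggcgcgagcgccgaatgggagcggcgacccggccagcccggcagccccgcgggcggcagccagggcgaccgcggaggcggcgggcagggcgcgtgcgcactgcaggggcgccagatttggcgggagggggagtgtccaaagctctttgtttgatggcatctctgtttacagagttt
The TAL1 window held an E-box starting at position -93 from the start, a GATA match at -35 and an ETS match at -165, the last pair on the opposite strand. The GFI1 window held an E-box at -192 and an ETS match at -9. The MYB window held none of the 5 motifs, nor did those of GATA2, TCF3 and HHEX. Of the windows not printed, that of LYL1 held 1 PU.1-type match, that of LDB1 held 2, and that of GFI1B held 1 E-box, 1 PU.1-type match and 1 MYB match. The RefSeq start used lay 5451 bases from the GENCODE gene start for LDB1 and 1531 bases for GFI1B. All 250 bases of the LYL1 window lay in exons. Among 34788 windows of the same length, 61.8% held the E-box, 9.2% the GATA motif, 14.5% the ETS motif, 23.6% the PU.1-type motif and 16.5% the MYB motif. A window was found for 9 of the 10 members, LMO2 being the exception. A match is a description of these letters, not a binding site.

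Total counts ran from 58397190 to 79172389 per library, so that 3 counts corresponded to 0.0366 to 0.0548 CPM (counts relative to the library size after TMM scaling), a limit that covers counting error only. The line with the duplication is called FLT3-ITD below. The library labelled FLT3-ITD control 2 went against its label. Its FLT3 level was 53.4 CPM, against 178 and 203 CPM in the other FLT3-ITD controls, 171 and 169 CPM in that line after FHD-286 and 39.2 to 43.3 CPM in OCI-AML3. Its WT1 level was 0.202 CPM against 21.8 and 19.9 CPM in the other FLT3-ITD controls. Mitochondrially encoded genes held 8.85% of its counts, against 4.48% and 4.82% in those controls, 4.91% and 5.13% in that line after FHD-286, 5.07% to 6.13% in OCI-AML3 controls and 6.29% to 7.54% in OCI-AML3 with FHD-286. Across genes its log2 CPM had a Pearson correlation of 0.979 to 0.984 with OCI-AML3 controls and of 0.957 to 0.960 with the other FLT3-ITD controls. For each of the 10 members this library lay outside the ranges of both the OCI-AML3 controls and the other FLT3-ITD controls. The share of all genes that did so was not computed, and for GFI1B this rests on 6 counts in this library. On the log scale it was nearer the OCI-AML3 controls for TAL1, LMO2, GATA2, MYB, HHEX, GFI1 and GFI1B, and nearer the other FLT3-ITD controls for LYL1, LDB1 and TCF3. It stays with the group its label gives, and results are also given without it. The cells had the marker genes of their label: 10 myeloid leukaemia markers summed to 3409 to 3772 CPM in OCI-AML3 controls, 1154 to 1220 CPM with FHD-286, 2430 to 3010 CPM in FLT3-ITD controls and 851 to 869.8 CPM with FHD-286, with CD68 under 0.5 CPM throughout. PRTN3, the largest part in controls, held 1809 to 2116, 151 to 156, 968 to 1193 and 124 to 125 CPM in the same order. Not every marker fell. ANPEP was at 18.8 to 22.3, 66.9 to 68.1, 11.1 to 22.0 and 31.7 to 32.9 CPM. PTPRC was at 256 to 289, 364 to 384, 313 to 419 and 326 to 353 CPM. The 12 erythroid and megakaryocyte markers summed to 20.4 to 23.7, 46.9 to 50.0, 11.03 to 25.7 and 32.4 to 36.7 CPM in the same order. Nearly all of that was the receptor gene EPOR, with 9 of the 12 under 0.5 CPM in every library and HBB, GP9 and PF4 at 0. The 8 lymphoid markers summed to 3.70 to 4.03, 0.724 to 0.882, 3.15 to 27.0 and 3.06 to 3.19 CPM, with CD3E at 0. The 8 stromal and epithelial markers summed to 28.3 to 31.0, 24.4 to 27.4, 10.3 to 29.2 and 4.81 CPM, mostly PECAM1, with CDH1, KRT19 and CDH5 at 0. The part of these shifts in the results below was not tested. In bulk RNA, fewer cells that express a gene and less of its RNA per cell cannot be told apart.

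The members' levels differed widely. To compare levels between genes, CPM were divided by the length of the merged exons in kb. In OCI-AML3 controls LMO2 was the highest member at 59.3 ± 1.87 CPM per kb (SD, n = 3) and overlapped TCF3 at 57.5 ± 3.39. MYB followed at 53.7 ± 0.651, GFI1 at 47.7 ± 0.960, LDB1 at 29.2 ± 1.42, LYL1 at 21.7 ± 2.23 and HHEX at 18.8 ± 0.447. GATA2 at 2.58 ± 0.262, TAL1 at 0.255 ± 0.0262 and GFI1B at 0.00737 ± 0.00249 CPM per kb were far lower. From TCF3 down, no neighbours in this order had overlapping ranges.

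With FHD-286 in OCI-AML3 the order became LMO2 at 109 ± 1.80 CPM per kb, GFI1 at 70.5 ± 0.970, MYB at 45.3 ± 0.327 and TCF3 at 40.7 ± 0.587, with no overlap between neighbours. LYL1 dropped to 5.42 ± 0.554 CPM per kb, below HHEX at 11.3 ± 0.229. In FLT3-ITD controls LMO2 (60.1 ± 19.0), GFI1 (56.8 ± 6.48), TCF3 (48.7 ± 5.33) and MYB (48.3 ± 2.58) had overlapping ranges, as did LYL1 and HHEX. Without the library labelled FLT3-ITD control 2 the order there was GFI1 at 60.6, TCF3 at 51.7, LMO2 at 49.1 and MYB at 46.9 CPM per kb, and no range of these 4 overlapped another. With FHD-286 in the FLT3-ITD line TCF3 (47.2 ± 0.211) and LMO2 (46.7 ± 0.690, n = 2) overlapped, and GFI1 (42.4 ± 2.45) and MYB (33.8 ± 2.34) came next.

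**Figure D1:**
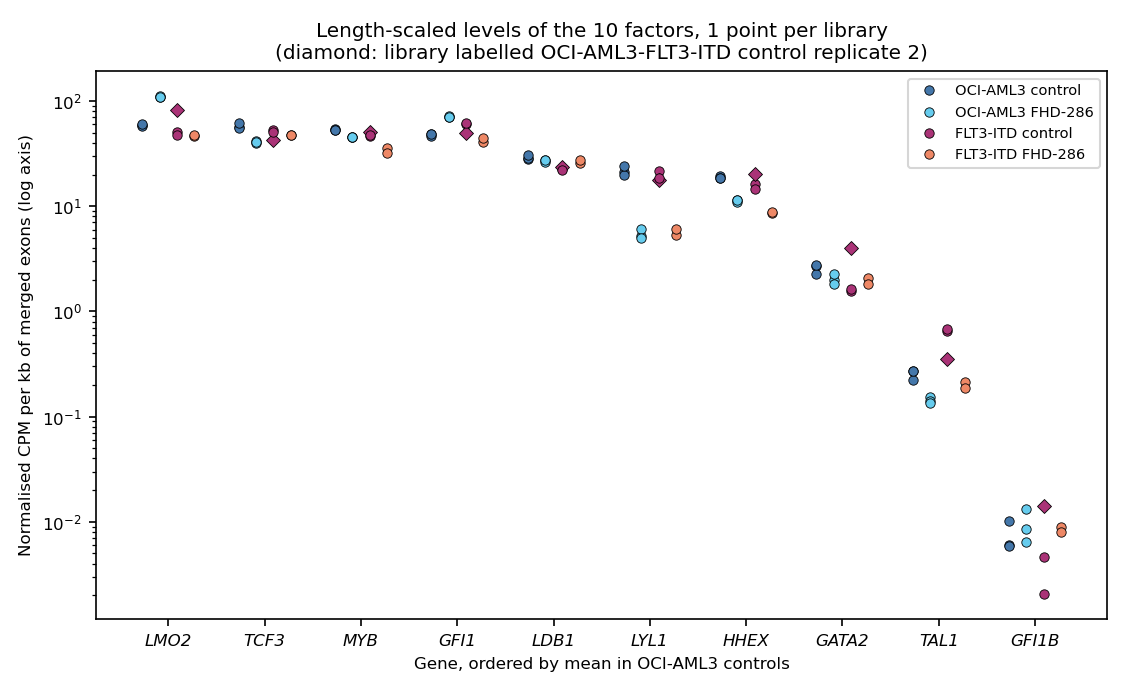
Length-scaled level of each member (vertical log axis, TMM-scaled CPM per kb of merged exons) in the 11 libraries, with 1 point per library, colours for the 4 groups and a diamond for the library labelled FLT3-ITD control 2. LMO2, TCF3, MYB and GFI1 sit at the top, TAL1 lies under 1 and GFI1B under 0.1 in every library.

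With the spread shared over all 4 groups, most members passed the test for FHD-286 in both lines. In OCI-AML3, LYL1, TAL1, TCF3, MYB and HHEX fell and LMO2 and GFI1 rose. In the FLT3-ITD line LYL1, TAL1, MYB, HHEX and GFI1 fell and LDB1 rose by a small amount. LYL1 showed the largest fall of the set in each line, by 4.01-fold and 3.36-fold, and LMO2 and GFI1 passed the test of a difference in response between the lines, LMO2 not in every alternative. When the FLT3-ITD groups were fitted alone, 2 members passed there, LYL1 and HHEX, where 1618 of 18074 genes did. In that fit TAL1 had a log2 fold change of -1.49 (adjusted p 0.0569, edgeR), MYB of -0.54 (adjusted p 0.05), GFI1 of -0.44 (adjusted p 0.0868) and LDB1 of 0.21 (adjusted p 0.272).

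In OCI-AML3, 5 of the 9 members tested were lower and 2 higher with a Benjamini-Hochberg adjusted p (edgeR, over all genes) under 0.05, where 41.3% of all genes passed, 21.5% lower and 19.8% higher. In the FLT3-ITD line 5 were lower and 1 higher, where 30.5% of all genes passed, 14.9% lower and 15.6% higher. With scaling by library totals the calls over all genes were 5161 higher and 3025 lower in OCI-AML3 and 4032 higher and 2254 lower in the FLT3-ITD line, against 3742 and 4074, and 2957 and 2810. The members' median log2 fold change was -0.35 in OCI-AML3 and -0.42 in the FLT3-ITD line, beside medians over all genes of 0.01 and -0.02. Values after "rose by", "fell by" or "differed by" below are on the log2 scale. Without the library labelled FLT3-ITD control 2, 6 members were lower and 2 higher in OCI-AML3, and 5 lower and 2 higher in the FLT3-ITD line. The shares of all genes called were then 58.8% and 49.0%, and the common biological coefficient of variation was 0.0652 instead of 0.193. With all 11 libraries, 2 members lay higher and 7 lower in treated OCI-AML3 than in every control, LDB1 and GATA2 among the lower. Over all genes 32.8% and 33.2% did so. In the FLT3-ITD line 1 member lay higher and 6 lower without overlap, beside 26.1% and 22.9% of all genes. Between controls, 17.1% of all genes lay higher and 19.8% lower in the FLT3-ITD line without overlap.

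**Figure D2:**
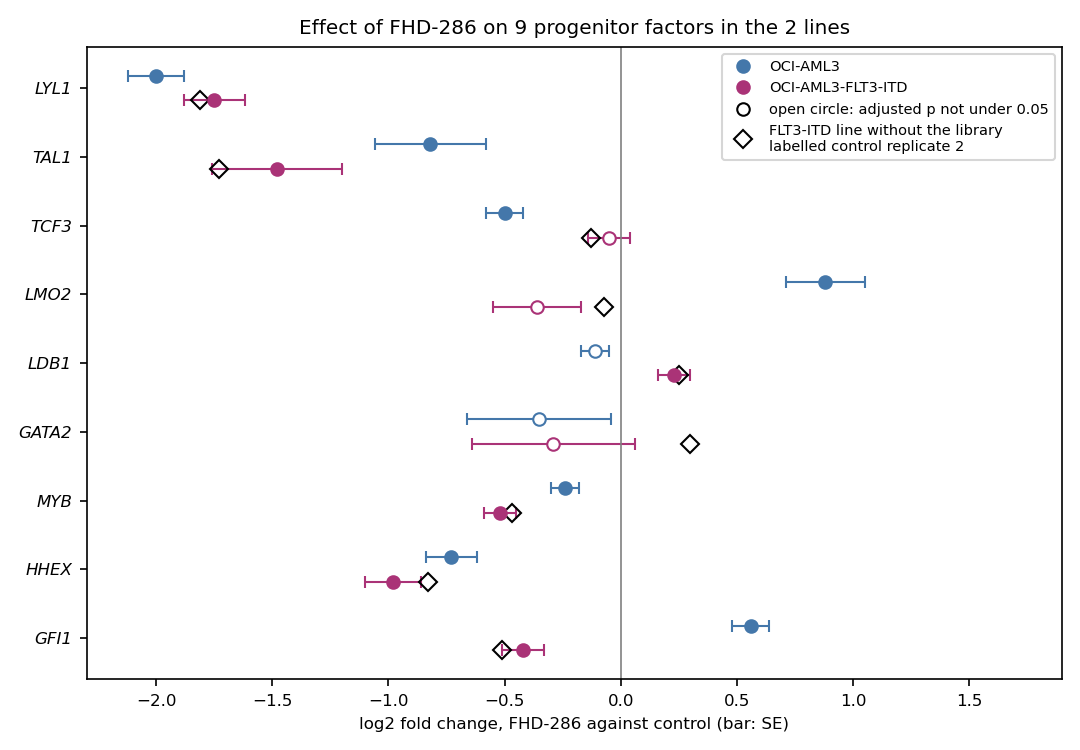
Log2 fold change of FHD-286 against control (horizontal axis, bars are SE) for the 9 members tested, with OCI-AML3 in blue, OCI-AML3-FLT3-ITD in purple, open circles for values that did not pass the test and black diamonds for the FLT3-ITD line without the library labelled FLT3-ITD control 2. LYL1 lies farthest to the left in both lines, and LMO2 and GFI1 lie on opposite sides of 0 in the 2 lines.

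LYL1 (ENSG00000104903.4, GRCh38 chromosome 19, 13099033 to 13103161) is the helix-loop-helix partner of the E proteins with the higher level here. It was at 66.5, 61.6 and 75.3 CPM in OCI-AML3 controls and at 16.1, 18.9 and 15.7 CPM with FHD-286. The FLT3-ITD controls were at 66.8, 54.8 and 58.3 CPM and the treated FLT3-ITD libraries at 16.6 and 19.0 CPM. Every treated library of either line lay below every control, and the treated libraries of the 2 lines overlapped. The log2 fold change was -2.00 (SE 0.12) in OCI-AML3 and -1.75 (SE 0.13) in the FLT3-ITD line, with adjusted p of 7.1e-07 and 7.81e-06 (edgeR). It was -1.81 in the FLT3-ITD line without the library labelled FLT3-ITD control 2. Between the lines the effects differed by 0.25 (SE 0.17), which did not pass the test (adjusted p 0.453, edgeR).

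TAL1 (ENSG00000162367.11, chromosome 1, 47216290 to 47232220), the close relative of LYL1, was expressed at a much lower level. Its values were 1.53, 1.28 and 1.54 CPM in OCI-AML3 controls and 0.885, 0.804 and 0.778 CPM with FHD-286. In FLT3-ITD controls they were 3.71, 2.01 and 3.83 CPM, the middle one from the library that went against its label, and in that line with FHD-286 1.22 and 1.06 CPM. Treated libraries lay below the controls of their own line without overlap, and the FLT3-ITD controls lay above those of OCI-AML3. TAL1 fell by 0.82 (SE 0.24) in OCI-AML3 (adjusted p 0.0205, edgeR) and by 1.48 (SE 0.28) in the FLT3-ITD line (adjusted p 0.00251), or by 1.73 there without the library labelled FLT3-ITD control 2. The call in OCI-AML3 rested on few counts, 188 over the 3 treated libraries, and was lost without OCI-AML3 control replicate 1 or 3 or treated replicate 2 or 3, at adjusted p of 0.0611 to 0.0725. Of the TAL1 exon length, 14.8% overlaps an antisense gene, and reads of the 2 cannot be told apart without the strand setting of the counting.

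TCF3 (ENSG00000071564.14, chromosome 19, 1609290 to 1652605) encodes the E proteins with which LYL1 and TAL1 pair. OCI-AML3 controls were at 343, 333 and 373 CPM and treated libraries at 251, 245 and 246 CPM, without overlap. The FLT3-ITD controls were at 322, 259.7 and 306 CPM and the treated libraries at 286 and 288 CPM, which lay inside the range of all 3 controls and below controls 1 and 3. TCF3 fell by 0.50 (SE 0.08) in OCI-AML3 (adjusted p 0.000778, edgeR). The log2 fold change of -0.05 (SE 0.09) in the FLT3-ITD line did not pass (adjusted p 0.752), nor did -0.13 without the library labelled FLT3-ITD control 2 (adjusted p 0.132). The difference between the lines was 0.45 (SE 0.12; adjusted p 0.0815, edgeR) and passed without that library (0.37, adjusted p 0.00706).

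LMO2 (ENSG00000135363.11, chromosome 11, 33858576 to 33892289), the LIM-only adaptor, responded differently in the 2 lines. OCI-AML3 controls were at 185, 178 and 189.7 CPM and treated OCI-AML3 libraries at 339.6, 345 and 334 CPM. FLT3-ITD controls 1 and 3 were at 156 and 149 CPM, the library labelled FLT3-ITD control 2 was at 255 CPM, and the treated FLT3-ITD libraries were at 144 and 147 CPM. The treated OCI-AML3 libraries were the highest of the 11, and the treated FLT3-ITD libraries lay just under the lowest FLT3-ITD control. LMO2 rose by 0.88 (SE 0.17) on the log2 scale in OCI-AML3, or 1.84-fold (adjusted p 0.00166, edgeR). In the FLT3-ITD line its log2 fold change was -0.36 (SE 0.19; adjusted p 0.169), and -0.07 (adjusted p 0.396) without the library labelled FLT3-ITD control 2. The difference between the effects was -1.25 (SE 0.25; adjusted p 0.0262, edgeR), and -0.96 (adjusted p 1.49e-07) without that library. That call was lost when any 1 of the 6 OCI-AML3 libraries or either treated FLT3-ITD library was left out, with differences of -1.31 to -1.22 and adjusted p of 0.0701 to 0.141.

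LDB1 (ENSG00000198728.10, chromosome 10, 102107560 to 102120453), the scaffold that dimerises these complexes, moved little. OCI-AML3 controls were at 77.9, 80.7 and 85.7 CPM and treated libraries at 75.8, 73.4 and 76.9 CPM. FLT3-ITD controls were at 63.5, 65.9 and 62.0 CPM and treated libraries at 72.6 and 76.8 CPM. The FLT3-ITD controls were the lowest of the 4 groups, and the treated libraries of the 2 lines overlapped. The log2 fold change was -0.11 (SE 0.06; adjusted p 0.173, edgeR) in OCI-AML3 and 0.23 (SE 0.07; adjusted p 0.0274) in the FLT3-ITD line. The call in the FLT3-ITD line was lost under 7 of 19 alternatives, with adjusted p of up to 0.272. Among these was leaving out OCI-AML3 treated replicate 3 (adjusted p 0.0697), FLT3-ITD control replicate 3 (0.0643), or treated FLT3-ITD replicate 1 (0.0696) or 2 (0.168). The difference between the lines was 0.34 (SE 0.09; adjusted p 0.0762), and 0.36 (adjusted p 0.00761) without the library labelled FLT3-ITD control 2.

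GATA2 (ENSG00000179348.11, chromosome 3, 128479427 to 128493185), a zinc finger factor of stem cell maintenance, gave results that depended on 1 library. OCI-AML3 controls were at 12.0, 10.2 and 12.4 CPM and treated libraries at 8.91, 10.1 and 8.20 CPM. FLT3-ITD controls 1 and 3 were at 6.93 and 7.22 CPM and the treated libraries at 9.27 and 8.23 CPM, while the library labelled FLT3-ITD control 2 was at 17.9 CPM, the highest of the 11. Neither the log2 fold change of -0.35 (SE 0.31; adjusted p 0.405, edgeR) in OCI-AML3 nor that of -0.29 (SE 0.35; adjusted p 0.575) in the FLT3-ITD line passed. Without the library labelled FLT3-ITD control 2, GATA2 fell by 0.34 in OCI-AML3 (adjusted p 0.00372) and rose by 0.30 in the FLT3-ITD line (adjusted p 0.037), and the difference of 0.65 passed (adjusted p 0.00448). With all 11 libraries that difference was 0.06 (SE 0.46; adjusted p 0.963).

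MYB (ENSG00000118513.18, chromosome 6, 135181315 to 135219173), the activator named after its viral relative, fell moderately in both lines. OCI-AML3 controls were at 299, 294 and 292 CPM and treated libraries at 248, 251 and 248 CPM. FLT3-ITD controls were at 253, 281 and 262 CPM and treated libraries at 195 and 176 CPM. The treated libraries lay below the controls of their line without overlap, and the treated FLT3-ITD libraries were the lowest of the 11. The log2 fold change was -0.24 (SE 0.06; adjusted p 0.0109, edgeR) in OCI-AML3 and -0.52 (SE 0.07; adjusted p 0.000454) in the FLT3-ITD line, or -0.47 without the library labelled FLT3-ITD control 2. The small fall in OCI-AML3 depended on scaling: it was -0.18 (adjusted p 0.0721) with upper-quartile factors and -0.09 (adjusted p 0.316) with library totals, under which the median of all genes moved to 0.17. It was also not called without OCI-AML3 treated replicate 3 (-0.21, adjusted p 0.0838). The difference between the lines, -0.27 (SE 0.10), did not pass (adjusted p 0.164, edgeR).

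HHEX (ENSG00000152804.10, chromosome 10, 92689951 to 92695646), the homeobox repressor, fell in both lines. Values were 48.8, 46.9 and 46.7 CPM in OCI-AML3 controls against 28.9, 27.9 and 28.8 CPM with FHD-286. They were 40.6, 51.5 and 37.0 CPM in FLT3-ITD controls, the highest from the library that went against its label, against 21.8 and 22.0 CPM with FHD-286. In each line the highest treated library was below the lowest control. HHEX fell by 0.73 (SE 0.11; adjusted p 0.000313, edgeR) in OCI-AML3 and by 0.98 (SE 0.12; adjusted p 0.000223) in the FLT3-ITD line, or by 0.83 there without the library labelled FLT3-ITD control 2. The difference of -0.24 (SE 0.16) between the lines did not pass (adjusted p 0.455).

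GFI1 (ENSG00000162676.11, chromosome 1, 92474762 to 92486876), the repressor of granulocyte fate choice, rose in OCI-AML3 and fell in the FLT3-ITD line. OCI-AML3 controls were at 159.9, 154 and 159 CPM and treated libraries at 232, 236 and 230.3 CPM. FLT3-ITD controls were at 198, 163 and 202 CPM, the lowest from the library that went against its label, and treated libraries at 134 and 146 CPM. The treated OCI-AML3 libraries were the highest of the 11 and the treated FLT3-ITD libraries the lowest. The log2 fold change was 0.56 (SE 0.08; adjusted p 0.000329, edgeR) in OCI-AML3 and -0.42 (SE 0.09; adjusted p 0.00643) in the FLT3-ITD line, or -0.51 without the library labelled FLT3-ITD control 2. The fall in the FLT3-ITD line was not called without treated FLT3-ITD replicate 1 (-0.36, adjusted p 0.0828) or with the FLT3-ITD groups fitted alone. Between the lines the effects of FHD-286 differed by -0.99 (SE 0.12; adjusted p 0.00358, edgeR). It ranged from -1.08 to -0.93 over 18 alternatives, with a highest adjusted p of 0.0409.

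GFI1B (ENSG00000165702.13, chromosome 9, 132944000 to 132991687), the relative of GFI1 in erythroid and platelet lineages, was at the limit of detection. The OCI-AML3 controls held 2, 4 and 2 counts and the treated libraries 6, 4 and 3. The FLT3-ITD controls held 2, 6 and 1 counts and the treated libraries 4 and 4. No library exceeded 0.0866 CPM, against a limit of 3 counts per library, and no fold change is given.

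**Figure D3:**
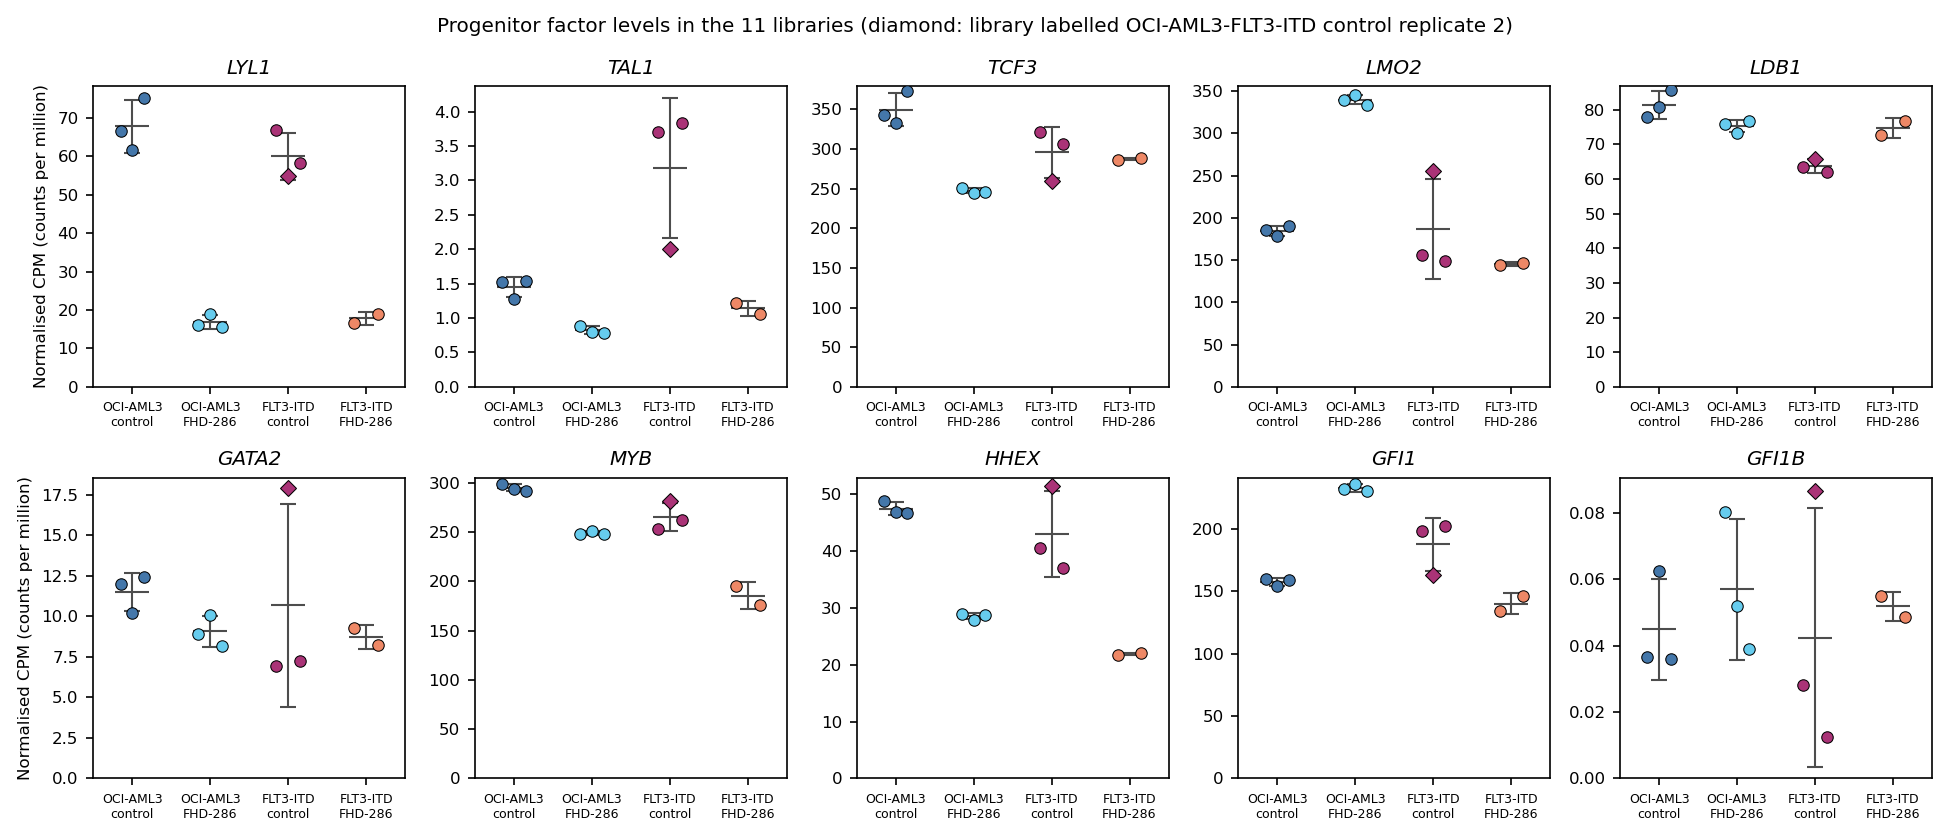
TMM-scaled CPM of each of the 10 members (vertical axes from 0) in the 4 groups, with 1 point per library, a horizontal line for the group mean, bars for the SD and a diamond for the library labelled FLT3-ITD control 2. LYL1 and HHEX drop with FHD-286 in both lines, and LMO2 and GFI1 rise above the controls in OCI-AML3 alone.

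The difference between the FHD-286 effects was tested as an interaction. It passed for 2 of the 9 members, LMO2 and GFI1, where 3.36% of all genes passed, and both differences were negative. Without the library labelled FLT3-ITD control 2, 6 members passed, where 17.0% of all genes did. These were LMO2, GFI1 and TAL1 with negative differences, and LDB1, GATA2 and TCF3 with positive ones. TAL1 then had a difference of -0.91 (adjusted p 0.0114, edgeR). DESeq2's Wald test on all 11 libraries called 4 members, adding LDB1 (0.32, adjusted p 0.0189) and TCF3 (0.44, adjusted p 0.02) to LMO2 and GFI1. It called 1467 of 18908 genes. When any 1 of the 6 OCI-AML3 libraries was left out, 1 member, GFI1, passed, where 185 to 297 of all genes did. Without treated FLT3-ITD replicate 1 or 2 the LMO2 difference was -1.23 or -1.25.

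Between the controls, TAL1 and GFI1 were higher and LDB1 lower in the FLT3-ITD line. This comparison and the effects of FHD-286 share their control libraries. TAL1 differed by 1.13 on the log2 scale (SE 0.24; adjusted p 0.00693, edgeR), LDB1 by -0.35 (SE 0.06; adjusted p 0.00302) and GFI1 by 0.25 (SE 0.08; adjusted p 0.0434). The GFI1 call was lost under 11 of 19 alternatives, among them leaving out any 1 library other than OCI-AML3 treated replicate 3 and the library labelled FLT3-ITD control 2, with adjusted p of up to 0.129. The 3 members called compare with 28.0% of all genes. Without the library labelled FLT3-ITD control 2, 7 members passed, where 49.4% of all genes did: TAL1 (1.38) and GFI1 (0.34) were higher, and LMO2 (-0.27), LDB1 (-0.38), GATA2 (-0.70), MYB (-0.19) and HHEX (-0.29) lower in the FLT3-ITD line. LYL1 did not pass with that library (-0.18, SE 0.11) or without it (-0.11, adjusted p 0.324).

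After FHD-286 the 2 lines were compared without their controls. LMO2, MYB, GFI1 and HHEX were lower in the treated FLT3-ITD libraries, 4 of 9 members where 26.0% of all genes passed, 11.7% lower and 14.3% higher. LMO2 differed by -1.23 (SE 0.19; adjusted p 0.0016, edgeR), GFI1 by -0.73 (SE 0.09; adjusted p 0.00051), MYB by -0.43 (SE 0.07; adjusted p 0.00244) and HHEX by -0.38 (SE 0.12; adjusted p 0.0393). The HHEX call was lost under 9 of 19 alternatives, 8 of which left out 1 OCI-AML3 or treated FLT3-ITD library, with adjusted p of up to 0.17. LYL1, at 16.9 ± 1.73 CPM (SD, n = 3) and 17.8 ± 1.69 CPM (n = 2), differed by 0.08 (SE 0.12; adjusted p 0.699).

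The partners and targets of the members came from lists drawn up with earlier results of these libraries known, so their counts describe and support nothing. E proteins and their ID inhibitors moved in both directions in OCI-AML3, with 3 of 5 tested higher and 1 lower, beside 19.8% and 21.5% of all genes. ID2, an inhibitor that keeps E proteins off DNA, went from 21.8 ± 1.19 to 67.5 ± 0.689 CPM (log2 fold change 1.63, SE 0.55; adjusted p 0.0358, edgeR), and TCF12, an E protein gene, rose by 0.51 (SE 0.08). ID3 fell by 3.35 (SE 0.21; adjusted p 1.05e-06) in OCI-AML3 and by 2.91 (SE 0.23; adjusted p 1.16e-05) in the FLT3-ITD line, where it was the only one of the 5 to pass with all 11 libraries, beside 30.5% of all genes. There 3 were higher and 1 lower without the library labelled FLT3-ITD control 2, beside 24.8% and 24.2% of all genes. In that library ID2 was at 93.0 CPM. The log2 fold change of ID2 in the FLT3-ITD line was 0.34 with that library and 1.68 without it. The list's median was 0.51 in OCI-AML3 and 0.26 in the FLT3-ITD line.

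Among the partners of LDB1 complexes, CBFA2T3, a corepressor bound by TAL1 complexes, changed most. It fell from 54.5 ± 3.37 to 5.78 ± 0.167 CPM in OCI-AML3 (log2 fold change -3.24, SE 0.09; adjusted p 6.52e-09, edgeR) and from 41.7 ± 2.12 to 7.54 ± 0.520 CPM in the FLT3-ITD line (-2.47, SE 0.10; adjusted p 1.87e-07). The difference between these effects was 0.77 (SE 0.12; adjusted p 0.00858). SSBP4, of the single-stranded DNA binding proteins that stabilise LDB1, fell by 0.36 (SE 0.10; adjusted p 0.0109) in OCI-AML3. Of 6 partners tested, 2 passed in OCI-AML3 (median -0.06) and 1 in the FLT3-ITD line (median -0.03), near or below the 41.3% and 30.5% of all genes that passed. In the FLT3-ITD line 3 were higher and 2 lower without the library labelled FLT3-ITD control 2, beside 24.8% and 24.2% of all genes. LMO1 and LDB2 were at 0 in every library.

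FLI1, ERG and RUNX1 complete the heptad of factors that share enhancers with LYL1, TAL1, LMO2 and GATA2. FLI1, an ETS factor, went from 135 ± 2.33 to 52.6 ± 1.58 CPM in OCI-AML3 (log2 fold change -1.36, SE 0.07; adjusted p 5.83e-07, edgeR) and from 144 ± 7.75 to 39.8 ± 4.58 CPM in the FLT3-ITD line (-1.86, SE 0.09; adjusted p 5.65e-07). The difference was -0.50 (SE 0.11; adjusted p 0.0356). ERG, another ETS factor, fell by 1.09 (SE 0.35; adjusted p 0.028) in OCI-AML3 and fell by 2.09 (SE 0.43; adjusted p 0.00423) in the FLT3-ITD line, or by 1.37 there without the library labelled FLT3-ITD control 2, which held 13.7 CPM. RUNX1 rose by 0.42 (SE 0.13; adjusted p 0.0269) in OCI-AML3 and had a log2 fold change of 0.22 (adjusted p 0.287) in the FLT3-ITD line. GATA1, the erythroid relative of GATA2, did not exceed 0.0433 CPM in any library.

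Of 10 genes of the GFI1 and GFI1B corepressor, 5 were higher and 1 lower in each line, with medians of 0.19 and 0.25. Over all genes 19.8% were higher in OCI-AML3 and 15.6% in the FLT3-ITD line. The 1 that fell was KDM1A, the histone demethylase itself, by 0.55 (SE 0.06; adjusted p 3.86e-05, edgeR) in OCI-AML3 and by 0.32 (SE 0.07; adjusted p 0.00449) in the FLT3-ITD line. PHF21A, a histone reader of the complex, rose by 0.90 (SE 0.13; adjusted p 0.000363) in OCI-AML3 and by 0.52 (SE 0.15; adjusted p 0.022) in the FLT3-ITD line. ZMYM2 rose by 0.44 and 0.59, and the deacetylase gene HDAC1 by 0.29 and 0.38. Leaving out the library labelled FLT3-ITD control 2 made this 6 higher and 2 lower in the FLT3-ITD line. Of all genes, 24.8% were then higher there and 24.2% lower.

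**Figure D4:**
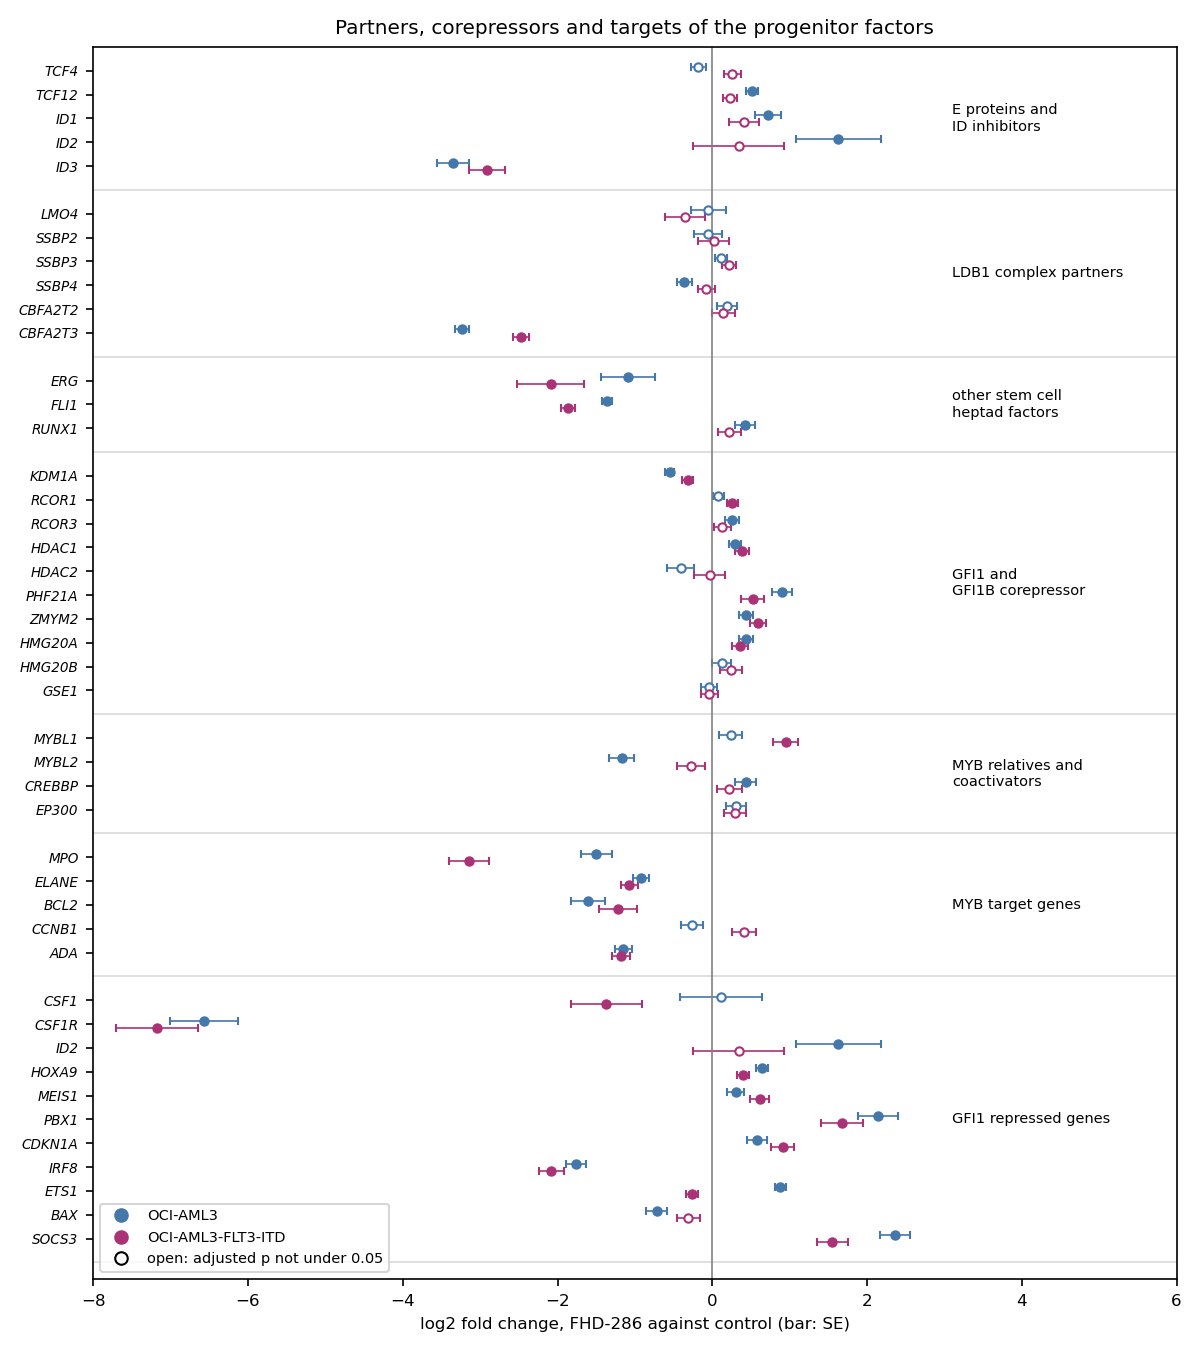
Log2 fold change of FHD-286 against control (horizontal axis, bars are SE) for genes of 7 lists of partners, corepressors and targets, with OCI-AML3 in blue, OCI-AML3-FLT3-ITD in purple and open points for values that did not pass the test. CSF1R, ID3, CBFA2T3, FLI1 and IRF8 lie to the left in both lines, and ETS1 lies at 0.88 in OCI-AML3 and at -0.26 in the FLT3-ITD line.

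Of genes listed as MYB targets, 4 of 5 tested fell in each line, with medians of -1.15 and -1.18, where 21.5% and 14.9% of all genes were lower. The fifth, the cyclin gene CCNB1, had log2 fold changes of -0.26 and 0.41 that did not pass. It passed in both lines without the library labelled FLT3-ITD control 2, at -0.26 (adjusted p 0.000913, edgeR) and 0.24 (adjusted p 0.0111), with a difference of 0.50 (adjusted p 0.000855). The list then had 5 lower in OCI-AML3, and 4 lower and 1 higher in the FLT3-ITD line. Of all genes, 29.8% were then lower in OCI-AML3, and 24.2% lower and 24.8% higher in the FLT3-ITD line. The granule protease gene ELANE went from 1233 ± 106 to 651 ± 23.5 CPM in OCI-AML3 (log2 fold change -0.92, SE 0.10) and from 484 ± 43.4 to 230.3 ± 23.8 CPM in the FLT3-ITD line (-1.07, SE 0.11). The survival gene BCL2 fell by 1.61 (SE 0.22) and by 1.22 (SE 0.25), and the adenosine deaminase gene ADA fell by 1.15 (SE 0.11) and by 1.18 (SE 0.12). The peroxidase gene MPO had few counts. It was at 1.92 ± 0.163 CPM in OCI-AML3 controls and 0.677 ± 0.0430 CPM with FHD-286. In FLT3-ITD controls it was at 2.28 ± 0.424 CPM, and in that line with FHD-286 at 0.256 ± 0.0701 CPM. It fell by 1.50 (SE 0.20) and fell by 3.14 (SE 0.26) in the 2 lines, a difference of -1.64 (SE 0.32; adjusted p 0.0225, edgeR). KIT and CD34, targets that mark early progenitors, did not exceed 0.1 CPM in any group mean and were not tested. Of 4 relatives and coactivators of MYB, 1 was higher and 1 lower in OCI-AML3, where 41.3% of all genes passed. In the FLT3-ITD line 1 was higher, where 30.5% of all genes passed. Without the library labelled FLT3-ITD control 2, 3 were higher there and 1 lower, beside 24.8% and 24.2% of all genes. MYBL2, the cell cycle relative of MYB, fell by 1.17 (SE 0.16; adjusted p 0.000207) in OCI-AML3. In the FLT3-ITD line its log2 fold change was -0.27 (adjusted p 0.279), or -0.47 (adjusted p 5.15e-05) without that library. MYBL1 had a log2 fold change of 0.24 (adjusted p 0.223) in OCI-AML3 and rose by 0.95 (SE 0.16; adjusted p 0.00137) in the FLT3-ITD line. The differences for MYBL2, 0.90 (adjusted p 0.0694), and MYBL1, 0.71 (adjusted p 0.113), did not pass with all 11 libraries and passed without that library (0.70, adjusted p 5.16e-05, and 0.81, adjusted p 0.00162).

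Genes listed as repressed by GFI1 moved both ways in both lines. In OCI-AML3 7 of 11, ID2 among them, were higher and 3 lower (median 0.58), beside 19.8% and 21.5% of all genes. In the FLT3-ITD line 5 were higher and 4 lower (median 0.34), beside 15.6% and 14.9% of all genes. Without the library labelled FLT3-ITD control 2 there were 6 and 5, beside 24.8% and 24.2% of all genes. CSF1R, the macrophage growth factor receptor, fell by 6.57 (SE 0.44) in OCI-AML3 and fell by 7.17 (SE 0.53) in the FLT3-ITD line. These sizes rest on few reads, since the treated libraries held 5, 6 and 5 counts in OCI-AML3 and 1 and 11 in the FLT3-ITD line. The monocyte regulator IRF8 went from 1056 ± 50.0 to 313 ± 16.1 CPM and from 1000 ± 221 to 237 ± 14.6 CPM. SOCS3, a feedback inhibitor of cytokine signalling, rose by 2.36 (SE 0.19) and by 1.55 (SE 0.20). HOXA9, a homeobox gene whose exons overlap other genes over 27.0% of their length, rose by 0.64 (SE 0.08) and by 0.40 (SE 0.08). ETS1, an ETS factor, rose in OCI-AML3 and fell in the FLT3-ITD line, like GFI1. Its level went from 37.1 ± 0.870 to 68.2 ± 2.45 CPM in OCI-AML3 (log2 fold change 0.88, SE 0.07; adjusted p 6.12e-06, edgeR) and from 33.5 ± 1.95 to 28.1 ± 1.85 CPM in the FLT3-ITD line (-0.26, SE 0.08; adjusted p 0.0315). The difference was -1.13 (SE 0.11; adjusted p 0.00125).

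For LYL1, LMO2, MYB and GFI1, the 3 most correlated genes were taken from 9971 protein-coding genes whose mean log2 CPM was 2 or more. The 11 libraries share their groups and scaling, and how many other genes followed as closely was not counted. Closest to LYL1 were STAT6, TRAP1 and CLEC11A, each with a Pearson correlation of log2 CPM of 0.995. STAT6, a cytokine-activated factor, went from 341 to 184 CPM in OCI-AML3 and from 327 to 187 CPM in the FLT3-ITD line (group means). Closest to LMO2 were FGD3 (0.983), NUDT7 (0.983) and DPP4 (0.978). FGD3 went from 43.5 to 78.3 CPM in OCI-AML3 and from 40.5 to 30.0 CPM in the FLT3-ITD line. MYB was followed by AFF3 (0.992), VIT (0.989) and CARD6 (0.986), and GFI1 by SUSD6 (0.951), SEPTIN5 (0.949) and IL17RA (0.943). AFF3, a nuclear elongation factor family member, went from 54.4 to 24.3 CPM and from 37.2 to 5.23 CPM. IL17RA, a cytokine receptor gene, went from 394 to 629 CPM in OCI-AML3 and from 466 to 352 CPM in the FLT3-ITD line. Exons of TRAP1, NUDT7 and SEPTIN5 overlap other genes over 29.3%, 32.2% and 73.0% of their length.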

How the data were processed

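RNA was measured in 11 libraries, grouped by the line and treatment in the labels. The authors deposited raw counts per gene, whole numbers that were not normalised. The submitters' processing notes name STAR and hg38. No counting program, strand setting or annotation was given in the sources used here. Total RNA was DNase treated, per the labels' protocols. Of 58037 identifiers, 57388 were found in GENCODE 29 on GRCh38, which gave coordinates and exon lengths, and 56948 had a symbol.

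After the low-count filter of filterByExpr (minimum count 10, minimum total 15) and TMM scaling, a quasi-likelihood model with a mean for each of the 4 groups and 7 residual degrees of freedom was fitted in edgeR 4.0.16 (R 4.3.3). Tests were two-sided, with Benjamini-Hochberg adjustment over 18908 genes and a threshold of 0.05. SE was computed as the absolute log2 fold change over the square root of F. Library sizes limit precision as given with the depths above.

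All members are named. Up to 4 genes with the smallest p and 1 of the minority direction were named from each list, and the 3 most correlated genes for LYL1, LMO2, MYB and GFI1. CCNB1, KIT, CD34, LMO1, LDB2, GATA1 and HOXA9 were named outside that rule, after their values were seen. The members, lists and tests were chosen with earlier results of these data known. Alternatives were DESeq2 size factors, upper-quartile factors, library totals, no filter, a filter of CPM of at least 1 in 3 libraries, DESeq2 1.42.0 (Wald), a fit restricted to the groups compared, a replicate block and leaving out each library. List counts without the library that went against its label were chosen after seeing the data. Promoter sequences are RefSeq's, and LYL1's window was not printed because it lies within transcribed exons.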

Additional observations from a re-analysis of the deposited data

Results flagged for a closer look

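Members and list genes appear here because the effect of FHD-286 differed between OCI-AML3 and the FLT3-ITD line by an interaction test (edgeR quasi-likelihood, adjusted p under 0.05). Among the members these were LMO2, with a difference of -1.25 (adjusted p 0.0262), and GFI1, with -0.99 (adjusted p 0.00358). Among partners and targets they were CBFA2T3 with 0.77 (adjusted p 0.00858), FLI1 with -0.50 (adjusted p 0.0356), MPO with -1.64 (adjusted p 0.0225) and ETS1 with -1.13 (adjusted p 0.00125). CBFA2T3, FLI1 and MPO fell in both lines and differed in size, while GFI1 and ETS1 rose in OCI-AML3 and fell in the FLT3-ITD line. MPO had few counts, with means of 0.677 CPM in treated OCI-AML3 and 0.256 CPM in treated FLT3-ITD libraries. LMO2 rose in OCI-AML3 and did not pass in the FLT3-ITD line. Its difference was not called when any single OCI-AML3 library was left out (adjusted p 0.0701 to 0.0791, edgeR), while that of GFI1 kept its call under every alternative. Without the library labelled FLT3-ITD control 2 the differences were -0.96 for LMO2, -1.08 for GFI1, 0.80 for CBFA2T3, -0.46 for FLI1, -1.78 for MPO and -1.10 for ETS1. Single libraries were not tested for outlying values within these groups of 2 or 3.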

How the results depend on the processing

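LYL1 and HHEX in both lines, LMO2, GFI1 and TCF3 in OCI-AML3, and the GFI1 difference between the lines kept their direction and their call under every alternative run. So did TAL1 and LDB1 between controls, and LMO2, MYB and GFI1 between treated libraries. Over all single-member results, 759 values kept direction and call. With the direction kept, 20 passed newly and 47 no longer passed. Another 20 changed sign, and the cause was not tested. Among those, LMO2 between controls (-0.27, adjusted p 0.000962, edgeR) and GATA2 in the FLT3-ITD line (0.30, adjusted p 0.037) passed without the library labelled FLT3-ITD control 2. When the fit was restricted to the groups compared, the FLT3-ITD line gave 2 called members and 1618 genes, the controls 1736 genes and the treated libraries 9581 genes. DESeq2's Wald test gave 4 members and 1467 genes for the difference between the lines. Correlations of deviations from group means ran from -0.0288 to 0.122 for same-numbered libraries and from -0.203 to 0.192 for others. They cannot decide whether replicate numbers pair the libraries, since a group of 2 libraries gives mirrored deviations. With the replicate block, 349 genes differed between the lines instead of 635, GFI1 between controls was not called (0.25, adjusted p 0.0681, edgeR) and LMO2 between controls was -0.01.

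Leaving out 1 library at a time gave 5 to 8 members and 6132 to 10973 genes called in OCI-AML3, 4 to 7 and 2908 to 9140 in the FLT3-ITD line, 1 to 6 and 105 to 3177 for the difference, 2 to 7 and 2914 to 9223 between controls, and 3 to 6 and 1909 to 8756 between treated libraries. The highest counts came without the library labelled FLT3-ITD control 2. With 1 treated FLT3-ITD library left, its spread was taken from the rest. Signs changed mostly at small values. With library totals LDB1 was 0.04 in OCI-AML3 and 0.03 between treated libraries, and TCF3 was 0.06 in the FLT3-ITD line. LDB1 between treated libraries was 0.00 with the stricter filter, and the GATA2 difference was -0.06 with upper-quartile factors. With 1 library left out, TCF3 in the FLT3-ITD line ran from -0.13 to 0.02 (highest without FLT3-ITD control 1) and GATA2 there from -0.52 to 0.30 (highest without FLT3-ITD control 2). The GATA2 difference ran from -0.18 to 0.65, being -0.07 without treated OCI-AML3 replicate 3, -0.18 and -0.16 without FLT3-ITD control 1 or 3, and -0.03 without treated FLT3-ITD replicate 1. Between controls LMO2 ran from -0.27 to 0.16, at -0.00 without OCI-AML3 control 2, and GATA2 from -0.70 to 0.13, at 0.13 and 0.11 without FLT3-ITD control 1 or 3. Between treated libraries LYL1 ran from -0.02 (without FLT3-ITD replicate 2) to 0.17, LDB1 from -0.05 to 0.02 (without FLT3-ITD replicate 1) and GATA2 from -0.14 to 0.03 (without replicate 2 of either line).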
